A study of Mus musculus with 4 samples.

Results

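The macrophage genes of the mammary gland were followed across 4 arrays of mammary epithelial cell preparations from 4 week-old mice. The set held 10 genes: the growth factor gene Csf1, its receptor gene Csf1r, the surface and lysosomal genes Adgre1, Cd68, Mrc1 and Cd163, the lysozyme gene Lyz2, and C1qa, C1qb and C1qc, which encode the chains of the complement protein C1q. Each was represented by the probe set that the platform annotation maps to that 1 symbol. All 10 were found, with 1 such probe set each, among 22180 genes named in this way. The 2 MMTV-Cre samples came from mice that carry Cre recombinase under the MMTV promoter, taken from the mouse mammary tumour virus and active in mammary epithelium among other tissues. The 2 wild-type samples came from littermates without the transgene. Both groups had the congenic FVB/NJ background, and no floxed allele or treatment is named for either. The glands were inguinal, taken without the lymph node, digested with collagenase and centrifuged so as to remove stromal cells, so macrophages were not the cells the preparation aimed at. Replicates are called biological in the labels, which do not say whether a sample is 1 mouse or a pool.

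Macrophages depend on signals through the CSF1 receptor, a tyrosine kinase on their surface that binds the ligands CSF1 and IL34. In the pubertal mammary gland they gather around the terminal end buds, the growing tips of the ducts, and mice that lack CSF1 have fewer of them and a poorly branched duct tree. They clear dying cells from the forming lumen and remodel collagen around the duct. They are also a main source of C1q, the recognition unit of the classical complement pathway, which is built from A, B and C chains.

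All values are log2 levels after robust multi-array averaging (RMA), and differences are MMTV-Cre minus wild-type on that scale. Levels of different genes were not set against each other, because each probe set has its own response. A gene was tested when its mean over the 4 arrays reached 2.84, the median of the probe set means, which left 11668 genes. Of the 10 genes, 7 were tested, and Adgre1, Cd163 and C1qc lay below this limit. Their differences come from a fit without the limit. The nearest gene inside was C1qa with a mean of 3.33, and the nearest outside was Adgre1 with 2.76. Of 12 macrophage markers on the list, 7 lay above the limit and 5 below it, namely Adgre1, Cd163, C1qc, Mertk and Fcgr1. The epithelial adhesion gene Epcam measured 8.67 and 8.52 in the MMTV-Cre arrays, against 8.61 and 8.64 in the wild-type arrays, and the luminal keratin gene Krt8 lay between 10.30 and 10.40 on all 4.

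None of the 10 genes passed the test by limma with Benjamini-Hochberg adjustment (n = 2 per group). The members called were 0 of the 7 tested, and the share called over all tested genes was 0%. At an unadjusted p under 0.05 there were 0 of those 7, against 4.32% of all tested genes, and 0 of 10 in the fit without the limit, against 4.56% of all genes. For every one of the 10 genes the arrays of the groups overlapped, while groups did not overlap in 33.0% of all genes. Of the 10 differences 6 lay below 0 and 4 above. Their median was −0.07, beside −0.00 over all 22180 genes. All 10 genes were higher in MMTV-Cre replicate 2 than in MMTV-Cre replicate 1, as were 51.7% of all genes, and the median gap was 0.47, beside 0.01 over all genes. The corresponding median gap of the 10 genes between the wild-type arrays, replicate 2 minus replicate 1, was 0.09.

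**Figure D1:**
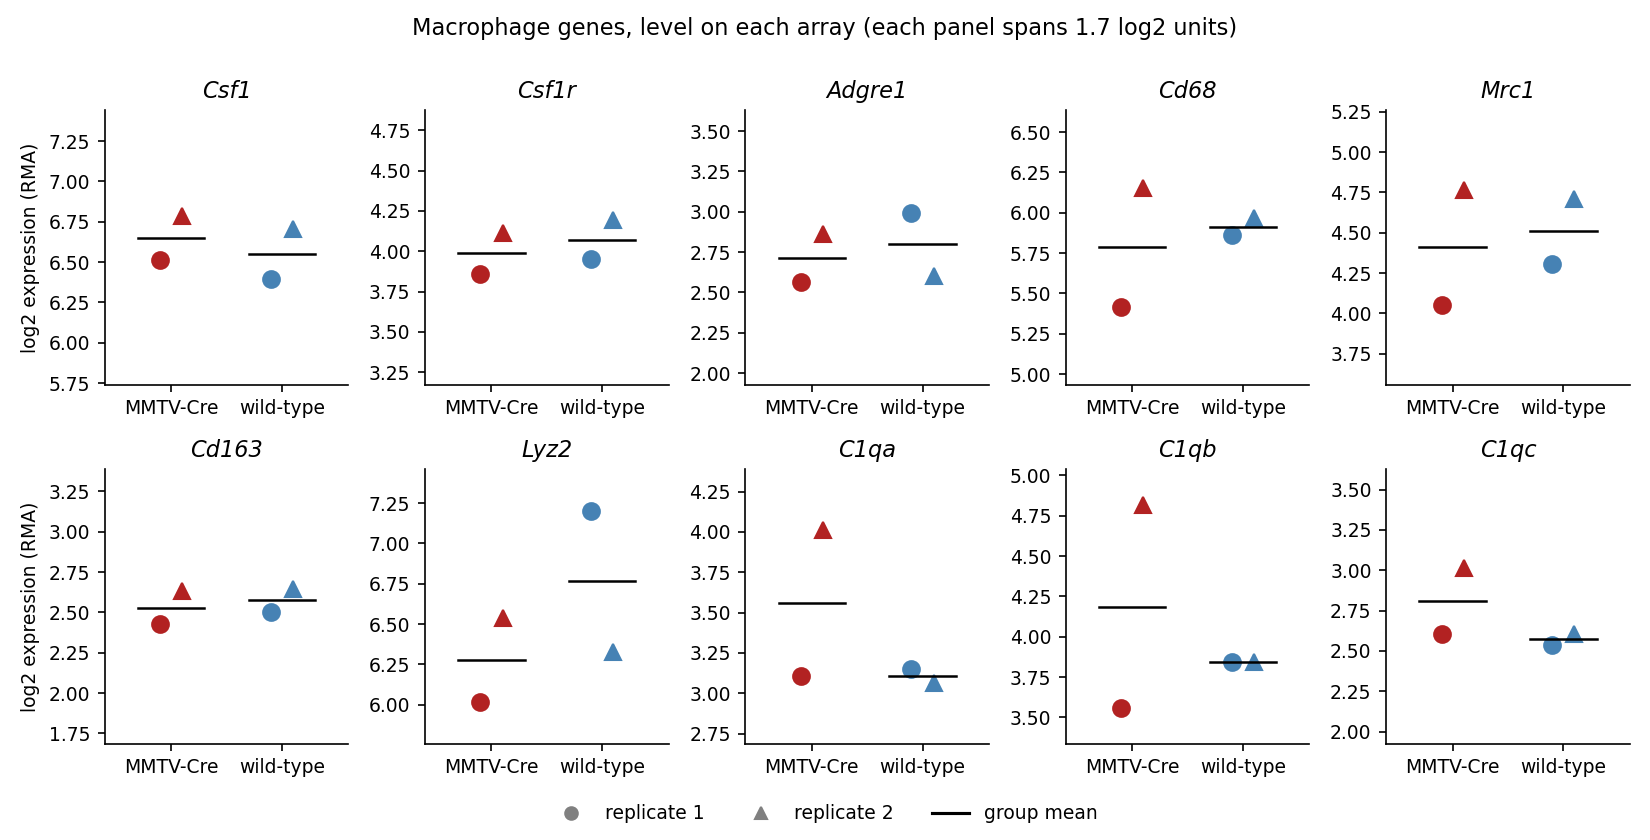
Log2 expression of the 10 macrophage genes, 1 panel per gene, with the MMTV-Cre arrays on the left and the wild-type arrays on the right. Circles are replicate 1, triangles replicate 2 and lines group means. The panels have different axes of equal span. The triangle of MMTV-Cre lies above the circle in every panel, and the groups overlap in every panel.

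The widest gaps between the MMTV-Cre arrays were those of C1qb and C1qa, at 1.26 and 0.91, followed by Cd68 at 0.74. In the RefSeq gene order of mouse assembly GRCm38.p6 C1qb, C1qc and C1qa follow each other with 0 genes between them. The 250 bases before the start of C1qb and C1qc are shown as examples of genes highest in MMTV-Cre replicate 2. Csf1, Cd68 and Mrc1 had the same highest array but are not shown. The same stretch of Lyz2 is shown because its highest array was another one. They come from the RefSeq promoter table of GRCm38.p6 and read along each gene's own strand. Capitals mark GAGGAA, or TTCCTC where it lies on the other strand, letters commonly found in binding sites of the myeloid factor PU.1, the product of Spi1.
C1qb, chr4:136886201-136886450, minus strand: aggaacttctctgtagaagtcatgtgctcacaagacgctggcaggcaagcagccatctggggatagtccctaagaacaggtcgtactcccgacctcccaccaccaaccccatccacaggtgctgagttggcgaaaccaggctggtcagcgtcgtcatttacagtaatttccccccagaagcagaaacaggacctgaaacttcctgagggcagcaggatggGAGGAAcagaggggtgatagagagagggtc
C1qc, chr4:136892915-136893164, minus strand: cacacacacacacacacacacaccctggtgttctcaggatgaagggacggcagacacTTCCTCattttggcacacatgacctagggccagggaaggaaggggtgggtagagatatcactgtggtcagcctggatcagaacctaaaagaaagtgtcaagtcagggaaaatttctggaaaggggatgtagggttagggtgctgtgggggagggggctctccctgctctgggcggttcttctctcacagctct
Lyz2, chr10:117282273-117282522, minus strand: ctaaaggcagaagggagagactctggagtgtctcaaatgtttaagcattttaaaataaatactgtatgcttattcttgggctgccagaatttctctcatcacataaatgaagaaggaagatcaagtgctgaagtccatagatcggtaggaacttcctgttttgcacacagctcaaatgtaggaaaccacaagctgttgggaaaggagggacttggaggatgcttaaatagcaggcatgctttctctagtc
C1qb and C1qc hold 1 match each, and Lyz2 holds 0 in this window. The table matched 7 of the 10 genes, all but Csf1r, Adgre1 and C1qa. The motif, searched on both strands, was present in 4 of these 7, namely C1qb, C1qc, Cd68 with 1 match and Mrc1 with 3. It was present in 23.3% of the 32851 promoters of the table over the same length. Csf1, which like C1qb and C1qc was highest in MMTV-Cre replicate 2, held 0 matches, as did Cd163. A match of these letters is a description of the sequence and not a binding site. Other forms of the site were not searched, so 0 matches do not show that a site is absent.

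Among the ligand and receptor genes, Csf1 encodes the growth factor that macrophages need to survive. Csf1 measured 6.51 and 6.79 in the MMTV-Cre arrays, against 6.39 and 6.71 in the wild-type arrays. In both groups replicate 2 was the higher array, and the groups overlapped. The log2 difference was 0.10 (95% interval −0.33 to 0.53), and without wild-type replicate 1 it was −0.06 (−0.56 to 0.44). Csf1r, the receptor gene, measured 3.86 and 4.12 in the MMTV-Cre arrays, against 3.95 and 4.19 in the wild-type arrays. The order within each group was that of Csf1, with replicate 2 above replicate 1. Its difference was −0.09 (−0.48 to 0.30), and −0.20 (−0.69 to 0.28) without wild-type replicate 1. Il34, which encodes the other ligand of the receptor, lay near the dim end with 2.78 and 3.52 in the MMTV-Cre arrays against 2.81 and 2.92 in the wild-type arrays, with MMTV-Cre replicate 2 highest and a difference of 0.28 (−0.38 to 0.95).

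Adgre1 encodes the surface receptor most used to recognise mouse macrophages. It was dim, with 2.56 and 2.86 in the MMTV-Cre arrays against 3.0 and 2.61 in the wild-type arrays, and wild-type replicate 1 was its highest array. Adgre1 differed by −0.09 (−0.55 to 0.37), and by 0.11 (−0.40 to 0.62) without that array. The lysosomal glycoprotein gene Cd68 measured 5.41 and 6.15 in the MMTV-Cre arrays, against 5.86 and 5.97 in the wild-type arrays. Both wild-type arrays of Cd68 thus lay between the MMTV-Cre arrays, of which replicate 2 was 1.67-fold above replicate 1 on the linear scale. The difference of Cd68 was −0.13 (−0.79 to 0.53), and −0.18 (−1.02 to 0.66) without wild-type replicate 1.

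Mrc1 encodes the mannose receptor CD206, carried by many tissue macrophages. It measured 4.05 and 4.77 in the MMTV-Cre arrays, against 4.31 and 4.71 in the wild-type arrays. Replicate 2 was the higher array in both groups, with gaps of 0.71 in MMTV-Cre and 0.40 in wild-type. Mrc1 differed by −0.10 (−0.81 to 0.61), and by −0.30 (−1.12 to 0.52) without wild-type replicate 1. Cd163, the gene of the haemoglobin scavenger receptor, lay furthest below the limit, with 2.43 and 2.63 in the MMTV-Cre arrays against 2.50 and 2.65 in the wild-type arrays. Its range over the arrays was narrow, and its difference was −0.05 (−0.39 to 0.29), or −0.12 (−0.58 to 0.35) without wild-type replicate 1.

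Lyz2 encodes the lysozyme that macrophages, monocytes and neutrophils secrete. It measured 6.02 and 6.54 in the MMTV-Cre arrays, against 7.20 and 6.33 in the wild-type arrays. Wild-type replicate 1 stood 0.66 above the next highest array, and wild-type replicate 2 lay between the MMTV-Cre arrays. Lyz2 differed by −0.49 (−1.35 to 0.37, adjusted p = 0.964 by limma), the most negative value of the 10, and by −0.05 (−0.71 to 0.61) without wild-type replicate 1. The paralog gene Lyz1, whose transcript is close in sequence to that of Lyz2 so that probes may not fully separate them, measured 3.76 and 3.71 in the MMTV-Cre arrays, against 4.24 and 3.57 in the wild-type arrays, also with wild-type replicate 1 highest. Lyz1 differed by −0.17, and by 0.17 without that array.

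The C1q genes had the 3 most positive differences of the 10. C1qa measured 3.11 and 4.01 in the MMTV-Cre arrays, against 3.15 and 3.06 in the wild-type arrays. C1qb measured 3.56 and 4.82 in the MMTV-Cre arrays, against 3.84 and 3.84 in the wild-type arrays. C1qc measured 2.60 and 3.02 in the MMTV-Cre arrays, against 2.53 and 2.61 in the wild-type arrays. In each case 1 array, MMTV-Cre replicate 2, stood above the other 3, by 0.86 for C1qa, 0.97 for C1qb and 0.41 for C1qc. MMTV-Cre replicate 1 was the lowest array of C1qb and lay between the wild-type arrays for C1qa and C1qc. The wild-type arrays were close together, with an SD of 0.065 for C1qa and 0.0024 for C1qb, against 0.641 and 0.891 between the MMTV-Cre arrays.

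The log2 difference was 0.45 for C1qa (−0.33 to 1.24, adjusted p = 0.964 by limma, n = 2 per group). It was 0.34 for C1qb (−0.70 to 1.39, adjusted p = 0.990 by limma) and 0.24 for C1qc (−0.18 to 0.66). All 3 intervals included 0. Leaving out wild-type replicate 1 moved these values little, to 0.50 for C1qa, 0.35 for C1qb and 0.20 for C1qc. They rested on MMTV-Cre replicate 2 instead. Without that array the differences were 0.00 for C1qa, −0.29 for C1qb and 0.03 for C1qc, and without MMTV-Cre replicate 1 they were 0.91, 0.97 and 0.44.

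**Figure D2:**
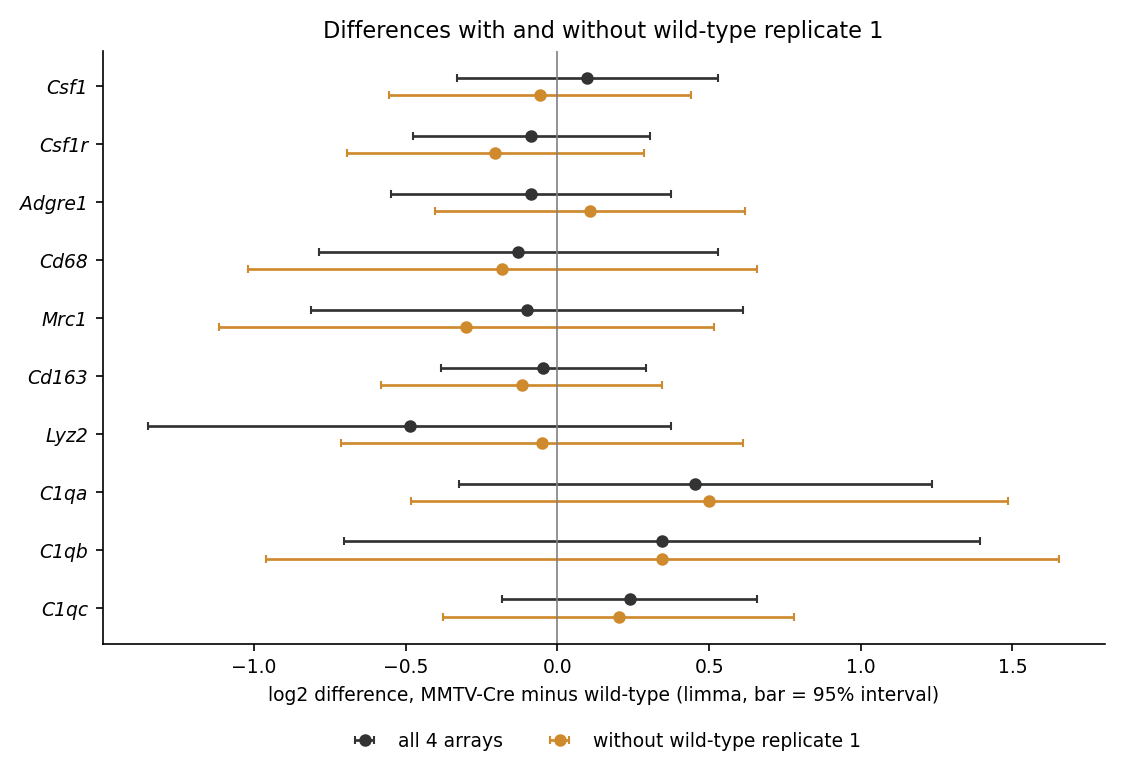
Log2 difference, MMTV-Cre minus wild-type, of each macrophage gene with its 95% interval from limma, for all 4 arrays (dark) and without wild-type replicate 1 (orange). Every interval includes 0. Lyz2 is at −0.49 with all arrays and at −0.05 without that array, while the C1q genes are nearly in the same place.

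Wild-type replicate 1 held higher levels of lymphocyte and lymph node transcripts than the other arrays. The T cell receptor gene Cd3e measured 3.26 and 3.08 in the MMTV-Cre arrays, against 6.0 and 3.19 in the wild-type arrays, and Glycam1 at 2.72 and 2.75 against 10.19 and 2.87. The macrophage genes as a set did not share this peak. Wild-type replicate 1 was the highest array for 2 of the 10, Lyz2 and Adgre1, and for 23.4% of all genes. Without it 2 differences changed sign, those of Csf1 and Adgre1, as did 19.5% of all genes, and the median of the 10 differences was −0.05, beside −0.00 over all genes. Again 0 of the 7 tested genes passed, where 0% of all tested genes did, and 0 of 7 had an unadjusted p under 0.05, against 3.03%.

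MMTV-Cre replicate 2 was the highest array for 6 of the 10 genes, Csf1, Cd68, Mrc1, C1qa, C1qb and C1qc, and for 26.1% of all genes. MMTV-Cre replicate 1 was the lowest for 7 of the 10, against 27.9% of all genes. As a mean over the 10 genes, each relative to its own mean over the arrays, the level was −0.27 and 0.29 in MMTV-Cre and −0.01 and −0.01 in wild-type. Over all tested genes the same mean lay between −0.02 and 0.02 on each array. In a tissue preparation a greater number of macrophages and more RNA of these genes per macrophage cannot be told apart.

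**Figure D3:**
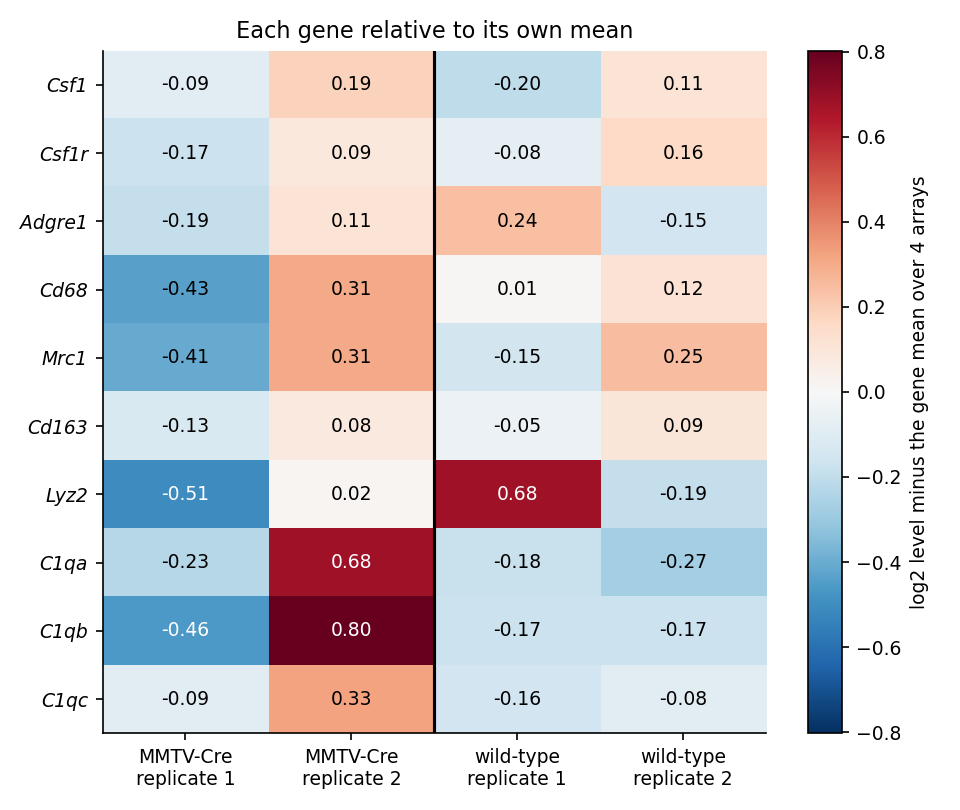
Level of each macrophage gene relative to its own mean over the 4 arrays (log2), 1 row per gene and 1 column per array, with MMTV-Cre left of the line and wild-type right of it. MMTV-Cre replicate 1 is below 0 in all 10 rows and MMTV-Cre replicate 2 above 0 in all 10, while wild-type replicate 1 stands out for Lyz2.

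Other genes of macrophages were compared with the same fit. Of the 30 listed genes of the general macrophage list, 28 were measured and 21 tested. Of these, 7 had differences above 0 and 14 below, 0 passed in either direction, and the median was −0.07, against −0.00 over all tested genes. Groups did not overlap in 2 of the 21, both lower in MMTV-Cre, where 16.5% of all tested genes were lower without overlap. These were Spi1 and Aif1. Spi1, the gene of the myeloid transcription factor PU.1, measured 2.86 and 3.42 in the MMTV-Cre arrays, against 3.65 and 3.49 in the wild-type arrays, with a difference of −0.43 (−0.97 to 0.11). The costimulatory gene Cd86 differed by −0.41 and the adaptor gene Tyrobp by −0.34, with wild-type replicate 1 as the highest array of both. Without wild-type replicate 1 the differences were −0.35 for Spi1, −0.11 for Cd86 and −0.08 for Tyrobp, and the median of the list was 0.01. On the mean relative to each gene's own mean, this list measured −0.25 and 0.07 in the MMTV-Cre arrays, against 0.28 and −0.09 in the wild-type arrays, so that its highest array was wild-type replicate 1 and not MMTV-Cre replicate 2. Cd53 and Laptm5, members of that list that lymphocytes also express, reached at most 5.49 and 3.14 in the MMTV-Cre arrays, against 7.80 and 4.47 in wild-type replicate 1 and 5.13 and 3.03 in wild-type replicate 2. They were chosen after their values were seen. Of the 21 tested genes of this list, wild-type replicate 1 was the highest array for 12, among them Spi1, Aif1, Cd86 and Tyrobp. MMTV-Cre replicate 2 was the highest for 7. Among all 11668 tested genes these arrays were the highest for 2388 and 3216. The surface genes Cx3cr1, a chemokine receptor, and Itgam, an integrin, differed by 0.00 (−0.39 to 0.40) and 0.02 (−0.29 to 0.32), or by −0.17 and −0.06 without wild-type replicate 1. Mertk, which encodes a receptor for dying cells, and the Fc receptor gene Fcgr1, both below the limit, differed by 0.16 and −0.10.

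Genes typical of resident tissue macrophages had 12 tested members of 19 measured, 6 above and 6 below 0, with a median of −0.02 and 0 passing. As a mean they measured −0.25 and 0.21 in the MMTV-Cre arrays, against 0.02 and 0.02 in the wild-type arrays, so that the lowest and highest arrays were those of the 10 genes. Gas6, which encodes a bridging protein for the clearance of dying cells, measured 6.26 and 6.24 in the MMTV-Cre arrays, against 5.56 and 5.86 in the wild-type arrays, a difference of 0.54 (0.18 to 0.90) with an adjusted p = 0.964 by limma. The phosphatidylserine receptor gene Timd4 differed by −0.87 (−1.90 to 0.17), and by −0.29 without wild-type replicate 1, with 2.77 or less in the MMTV-Cre arrays, against 3.99 in wild-type replicate 1 and 2.84 in wild-type replicate 2. Cbr2 differed by −0.25, and by −0.43 without that array. MMTV-Cre replicate 2 was the highest array for 6 of the 12 tested resident genes and for 7 of the 21 tested on the general macrophage list. Wild-type replicate 1 was the highest for 2 and 12 of them. Pf4, a chemokine gene of the resident list, and Ms4a7, of the general list, had the array order of Cd68 at the extremes. Both were chosen after their values were seen. Pf4 measured 4.15 and 5.55 in the MMTV-Cre arrays, against 5.01 and 4.84 in the wild-type arrays. Ms4a7 measured 3.97 and 5.24 in the MMTV-Cre arrays, against 4.61 and 4.52 in the wild-type arrays. Both had MMTV-Cre replicate 1 lowest, MMTV-Cre replicate 2 highest and a difference near 0, −0.08 for Pf4 and 0.05 for Ms4a7.

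Around the CSF1 receptor, 14 genes of ligands, related receptors and downstream factors were tested, 5 above and 9 below 0, with a median of −0.04 and 0 passing. Csf2rb, the shared chain of the GM-CSF and IL-3 receptors, measured 3.91 and 4.49 in the MMTV-Cre arrays, against 4.90 and 4.54 in the wild-type arrays, a difference of −0.52 (−1.13 to 0.09), or −0.34 without wild-type replicate 1. The transcription factor gene Irf8 differed by −0.46 (−1.11 to 0.20), and by −0.11 without wild-type replicate 1. Neither passed. Among genes for chemokines and other factors that attract macrophages, 17 of 17 were tested, 12 above and 5 below 0, with a median of 0.10 and 0 passing. MMTV-Cre replicate 2 was the highest array for 13 of them. Ccl5 differed by −0.64 (−1.33 to 0.05), Ccl8 by 0.38 (−0.13 to 0.89) and Cxcl12 by 0.19. Without wild-type replicate 1 these were −0.25, 0.12 and 0.29, and the median of the list was 0.05.

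The complement genes other than C1q had 15 tested members, 8 above and 7 below 0, with a median of 0.01, or 0.16 without wild-type replicate 1, and 0 passing. C1ra and C1s1, whose products are the proteases that C1q activates, did not show the array order of C1q. C1ra measured 4.55 and 4.13 in the MMTV-Cre arrays, against 4.43 and 4.74 in the wild-type arrays, and C1s1 at 3.59 and 3.43 against 3.46 and 3.58, so that MMTV-Cre replicate 2 was the lowest array of both. C3ar1, the receptor gene for the anaphylatoxin C3a, measured 3.68 and 4.05 in the MMTV-Cre arrays, against 3.60 and 3.58 in the wild-type arrays. It was highest in MMTV-Cre replicate 2, as the C1q genes were, and differed by 0.27 (−0.13 to 0.67). Cd55, which encodes a membrane inhibitor of complement, measured 4.48 and 4.46 in the MMTV-Cre arrays, against 4.95 and 4.95 in the wild-type arrays, a difference of −0.48 (−0.75 to −0.21) with an adjusted p = 0.964 by limma. The early component gene C2 differed by 0.46 (−0.10 to 1.01) and the C1 inhibitor gene Serping1 by 0.24 (−0.05 to 0.52).

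Genes of scavenging and of the lysosome, with which Cd68, Mrc1 and Cd163 belong, had 18 tested members, 11 above and 7 below 0, a median of 0.01 and 0 passing. Ctss, which encodes the lysosomal protease cathepsin S, differed by −0.34 and by 0.09 without wild-type replicate 1. The lysosomal lipase gene Lipa differed by −0.17, and Gpnmb by 0.20. Genes of macrophage activation had 12 tested members, 3 above and 9 below 0, a median of −0.23 and 0 passing. The checkpoint ligand gene Cd274 differed by −0.58 (−1.16 to 0.00) and the cytokine gene Il6 by −0.24 (−0.52 to 0.05), and without wild-type replicate 1 by −0.31 and −0.19.

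Neighbouring cell types of the myeloid line were also measured. Monocyte genes had 11 tested members, 6 above and 5 below 0. Their median was 0.18, and 0.02 without wild-type replicate 1. F10, Treml4 and Plac8 differed by 0.34, 0.28 and −0.38, and by 0.41, 0.30 and −0.20 without that array. Dendritic cell genes had 5 tested of 14 measured, 1 above and 4 below 0, and the lectin gene Cd209a, the homing receptor gene Ccr7 and the transcription factor gene Zbtb46 differed by −0.33, −0.80 and −0.24. Without wild-type replicate 1, in which Ccr7 stood at 5.90, these differences were −0.46, −0.10 and −0.32. No gene of either list passed. Both medians of the monocyte list were the values of Vcan, and Ccr2 of that list lay below the limit. Whether the RNA of the listed genes came from monocytes was not tested.

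On the same relative measure the fibroblast, endothelial and fat cell lists also stood higher in MMTV-Cre replicate 2 than in MMTV-Cre replicate 1. The endothelial list moved at least as much between the wild-type arrays, and the epithelial list moved little. The fibroblast list measured −0.17 and 0.34 in the MMTV-Cre arrays, against −0.09 and −0.08 in the wild-type arrays, and 19 of its 19 tested genes were higher in MMTV-Cre replicate 2 than in MMTV-Cre replicate 1. The collagen gene Col1a1 measured 6.15 and 6.47 in the MMTV-Cre arrays, against 5.92 and 6.06 in the wild-type arrays. Loxl1, Col1a1 and Dpt, all genes of the fibroblast matrix, differed by 0.53, 0.32 and 0.36, and by 0.49, 0.25 and 0.17 without wild-type replicate 1. Endothelial genes measured −0.13 and 0.18 in the MMTV-Cre arrays, against −0.22 and 0.17 in the wild-type arrays, with 14 of 16 higher in MMTV-Cre replicate 2 than in MMTV-Cre replicate 1. The endothelial genes Eng, Tie1, Plvap and Pecam1 differed by 0.29, −0.27, −0.29 and 0.09, and by 0.10, −0.46, −0.39 and 0.00 without wild-type replicate 1. The fat cell list measured −0.30 and 0.20 in the MMTV-Cre arrays, against −0.01 and 0.11 in the wild-type arrays. Of its 11 tested genes, 5 had differences above 0 and 6 below. Their median was −0.02, and −0.10 without wild-type replicate 1. The fat cell genes Plin1, Lipe, Cidec and Adipoq differed by −0.34, −0.22, −0.74 and −0.16, and by −0.33, −0.29, −0.48 and −0.19 without wild-type replicate 1. Epithelial genes lay between −0.02 and 0.05 on all 4 arrays, although the basal keratin gene Krt14 measured 7.27 and 8.07 in the MMTV-Cre arrays, against 8.02 and 7.97 in the wild-type arrays. Of 21 tested epithelial genes 12 had differences above 0 and 9 below, with a median of 0.11, or 0.05 without wild-type replicate 1. Acta2, Krt18 and Cldn7 differed by 0.41, 0.18 and 0.19, and by 0.49, 0.19 and 0.12 without wild-type replicate 1. No gene of these lists passed. The part of these cell types in the gap of the macrophage genes was not tested.

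The immune lists had other orders. The T and NK cell list measured −0.51 and −0.47 in the MMTV-Cre arrays, against 1.40 and −0.41 in the wild-type arrays, and the neutrophil and eosinophil list, whose cells also express Lyz2, at −0.20 and −0.06 against 0.36 and −0.09. Their part in the level of Lyz2 in wild-type replicate 1 was not tested. That list had only 4 tested genes. The neutrophil gene S100a9 measured 3.82 and 3.60 in the MMTV-Cre arrays, against 5.19 and 3.70 in the wild-type arrays, and so was highest in wild-type replicate 1, as Lyz2 was. Its partner S100a8 measured 6.32 and 7.08 in the MMTV-Cre arrays, against 7.06 and 6.52 in the wild-type arrays. With all arrays and without wild-type replicate 1, the differences were −0.74 and 0.01 for S100a9, −0.09 and 0.18 for S100a8, −0.22 and −0.32 for Cxcr2 and −0.03 and −0.03 for Ltf. The T cell genes Cd5, Lat and Il7r differed by −0.91, −1.37 and −1.81, and by −0.46, −0.29 and −0.30 without that array. The B and plasma cell list had only 4 tested genes and stood at −0.42 and −0.29 in MMTV-Cre, against 1.15 and −0.44 in wild-type, and the lymph node list, with 3, at −1.28 and −0.76 against 2.98 and −0.94. The B cell genes Cd79b, Ighm and Cd79a differed by −0.43, −1.90 and −0.38, and by −0.18, −0.05 and 0.43 without wild-type replicate 1, so that Cd79a changed sign. The lymph node genes Glycam1 and Cxcl13 differed by −3.80 and −1.54, and by −0.14 and −0.01 without that array. Mast cell genes had another order than the lymphocyte lists, with only 4 tested genes of 11 measured, 1 above and 3 below 0. The median was −0.59 over the 4 tested and −0.17 over all 11 measured. The mast cell protease genes Mcpt4, Cma1 and Cpa3 differed by −0.87, −0.46 and −0.73 (each adjusted p = 0.964 by limma). Without wild-type replicate 1 these were −0.85, −0.50 and −0.65. Hdc, the other tested gene, differed by 0.06, or by −0.36 without that array. The list stood at −0.41 and −0.09 in MMTV-Cre, against 0.16 and 0.34 in wild-type.

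**Figure D4:**
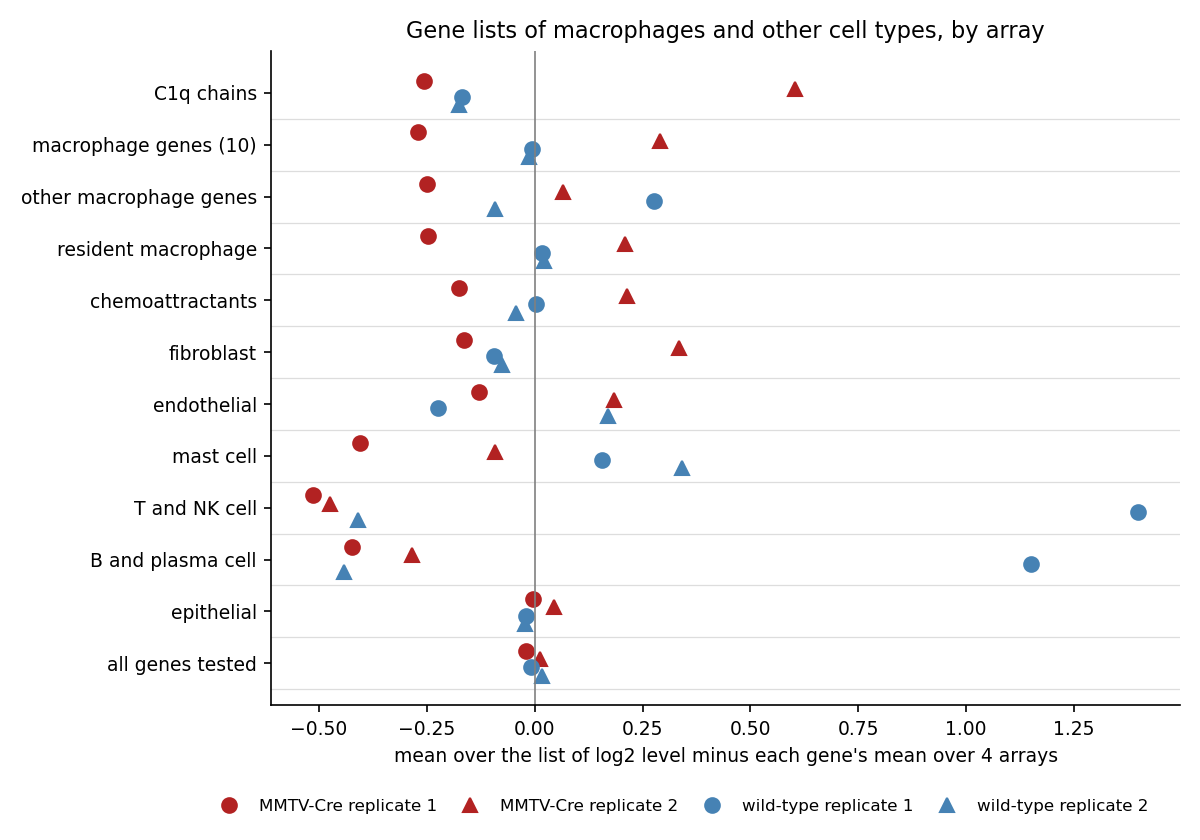
Mean over each list of the log2 level relative to each gene's own mean over the 4 arrays, by array, with MMTV-Cre in red and wild-type in blue, circles for replicate 1 and triangles for replicate 2. MMTV-Cre replicate 2 is the rightmost point for the C1q chains, the 10 macrophage genes, resident macrophage genes, chemoattractants, fibroblast, endothelial and epithelial genes. Wild-type replicate 1 is the rightmost point for the lymphocyte lists and for the other macrophage genes.

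The mean profile of the 9 genes other than Csf1 was −0.29 and 0.30 in MMTV-Cre and 0.02 and −0.03 in wild-type. Among 1368 tested protein-coding genes whose range over the arrays was at least the 0.59 of that profile, the nearest by root mean square distance over the 4 arrays was Gbp10, a gene of the guanylate-binding family, at a distance of 0.008 log2 units. Gbp10 measured 4.92 and 5.52 in the MMTV-Cre arrays, against 5.22 and 5.19 in the wild-type arrays. Cep170, Tpcn2, Rrp7a and Prr3 followed at distances from 0.031 to 0.038. None of the 5 is on a list of macrophage genes, and with 4 arrays many genes share a profile.

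With 2 arrays per group the half-width of the 95% interval was 0.34 for the median tested gene. For the 10 genes it lay between 0.34 for Cd163 and 1.05 for C1qb, so differences of the sizes seen here were not detectable with this number of arrays. An exact two-sided permutation test over 2 against 2 samples cannot give a p under 0.33.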

How the data were processed

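The authors deposited a log2 value for each probe set and array, from oligo and RMA per the submitters' processing notes, whose versions the sources used here do not give. The log2 scale was read from the values, whose array medians lay between 2.83 and 2.86. RMA equalises arrays, so a shift shared by most genes cannot be seen. Of 41345 probe sets, 23521 carried 1 symbol, 1814 several and 16010 were not named here. Of several probe sets of a gene the brightest was used. The comparison used limma 3.58.1 under R 4.3.3, with lmFit and eBayes, two-sided, and Benjamini-Hochberg at 0.05, over the 11668 genes above the limit on dim genes, and the procedure was tested on simulated data. The number of arrays limits precision. The genes and the 18 lists were chosen with earlier results of these data known, so no list was tested. All 10 genes, up to 3 tested genes with the smallest p in each list described, and fixed markers are named. Aif1, Lyz1, Cd53, Laptm5, Pf4 and Ms4a7 were chosen after their values were seen. Alternatives were other filters, probe set rules, normalizations and variance models, the replicate number as a block, an unadjusted threshold, and leaving out each array. The labels do not tie samples to separate mice, so p-values measure only the spread between samples.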

Additional observations from a re-analysis of the deposited data

How the results depend on the processing

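The alternatives that kept all 4 arrays gave 86 values for the 10 genes, and all 86 kept their direction with 0 passing. Only quantile normalization and the centring of each array could change a difference, as no gene had several probe sets. The other settings left the difference itself unchanged by construction, so they could not turn its direction. Under the stricter limit Adgre1, Cd163, C1qa and C1qc had no value. Over all genes 0 were called in those fits, and 504 genes had an unadjusted p under 0.05, among them 0 of the 7 macrophage genes tested. Same-numbered samples did not deviate together (correlation −0.04 over tested genes), and with the replicate number as a block 0 genes were called. In this balanced design a block cannot move a difference, so those of C1qa and Lyz2 stayed at 0.45 and −0.49 by construction. Without 1 array each, the genes called ran from 0 to 13, the 13 without wild-type replicate 2, and the macrophage genes called stayed at 0. A group left with 1 array is assumed to vary like the other group. In these fits 28 of 40 values kept their direction and 12 turned. The values ran from −0.058 to 0.25 for Csf1, −0.22 to 0.043 for Csf1r, −0.28 to 0.11 for Adgre1, −0.50 to 0.24 for Cd68, −0.46 to 0.26 for Mrc1, −0.15 to 0.056 for Cd163 and −0.29 to 0.97 for C1qb. Lyz2 (−0.92 to −0.05), C1qa (0.00 to 0.91) and C1qc (0.03 to 0.44) kept their sign. For Cd68, Mrc1, Csf1r and Cd163 the lowest value came without MMTV-Cre replicate 2 and the highest without MMTV-Cre replicate 1. The highest values of the C1q genes came without MMTV-Cre replicate 1, where MMTV-Cre replicate 2 alone stood for its group. The lowest value of Lyz2 came without wild-type replicate 2, where wild-type replicate 1 alone stood for its group.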
